A study of Mus musculus with 3 samples.

Results

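The nuclear genes for the subunits of the mitochondrial respiratory chain and ATP synthase were examined in messenger RNA from mouse dentate gyrus. They were picked by gene symbol: every symbol that begins with Nduf, Uqcr or Atp5, the succinate dehydrogenase genes Sdha to Sdhd, the numbered cytochrome c oxidase genes Cox4 to Cox8, Cycs and Cyc1, with symbols marked as pseudogenes left out. This gave 93 genes among 33101 gene names that carry a value. The samples were 3 wild-type libraries of micro-dissected dentate gyri from adult male C57Black6 mice aged 8 to 10 weeks. There was no second genotype or treatment, and the deposited table holds 1 value per gene for the whole group, so no replicate error, test or p-value can be attached to any level or ratio. The labels do not say whether the libraries came from separate animals. Values are FPKM, fragments per transcript length scaled to the mapped fragments of the library. This unit is scaled by length, so different genes can be set side by side, but the read depth behind it is unknown. Such comparisons are weaker for short listed transcripts, because FPKM of entries near the fragment length is poorly determined. Among the 93 genes this applies, for example, to Atp5k at 272 nt, Atp5e at 421 nt and Ndufa4 at 468 nt. The listed transcript of Atp5g1, by contrast, has 4715 nt. As a check of the tissue label, all 6 dentate granule cell markers examined were well above 1 FPKM, from Neurod1 at 29.4 FPKM to C1ql2 at 111 FPKM. Of 6 choroid plexus markers, Kl at 6.06 and Ttr at 2.13 FPKM exceeded 1 FPKM, and Folr1 was listed at 0.

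The respiratory chain moves electrons from NADH (complex I) and succinate (complex II) through ubiquinone to complex III, from there by the small protein cytochrome c to complex IV, and finally to oxygen. Complexes I, III and IV pump protons across the inner mitochondrial membrane, and ATP synthase uses the return flow to make ATP. A few subunits of each of these, but none of complex II, are encoded by mitochondrial DNA, and all the others are nuclear genes whose proteins are imported. Neurons draw most of their ATP from this pathway, chiefly to restore ion gradients after synaptic and action potentials.

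Nearly the whole set was transcribed at a substantial level. Of the 93 genes, 86 reached 1 FPKM, against 39.6% of all names with a value, 80 reached 10 FPKM, against 21.1%, and 32 reached 100 FPKM, against 2.08%. Among protein-coding names alone these background shares were 56.4%, 30.8% and 2.63%. The median was 69.8 FPKM, beside 11.5 FPKM for protein-coding names at 1 FPKM or more. The 93 genes comprise 85 genes for subunits and cytochrome c and 8 that are no subunit of these complexes, which are described at the end of the gene account. In bulk tissue, fewer cells of a type and less RNA per cell cannot be told apart.

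**Figure D1:**
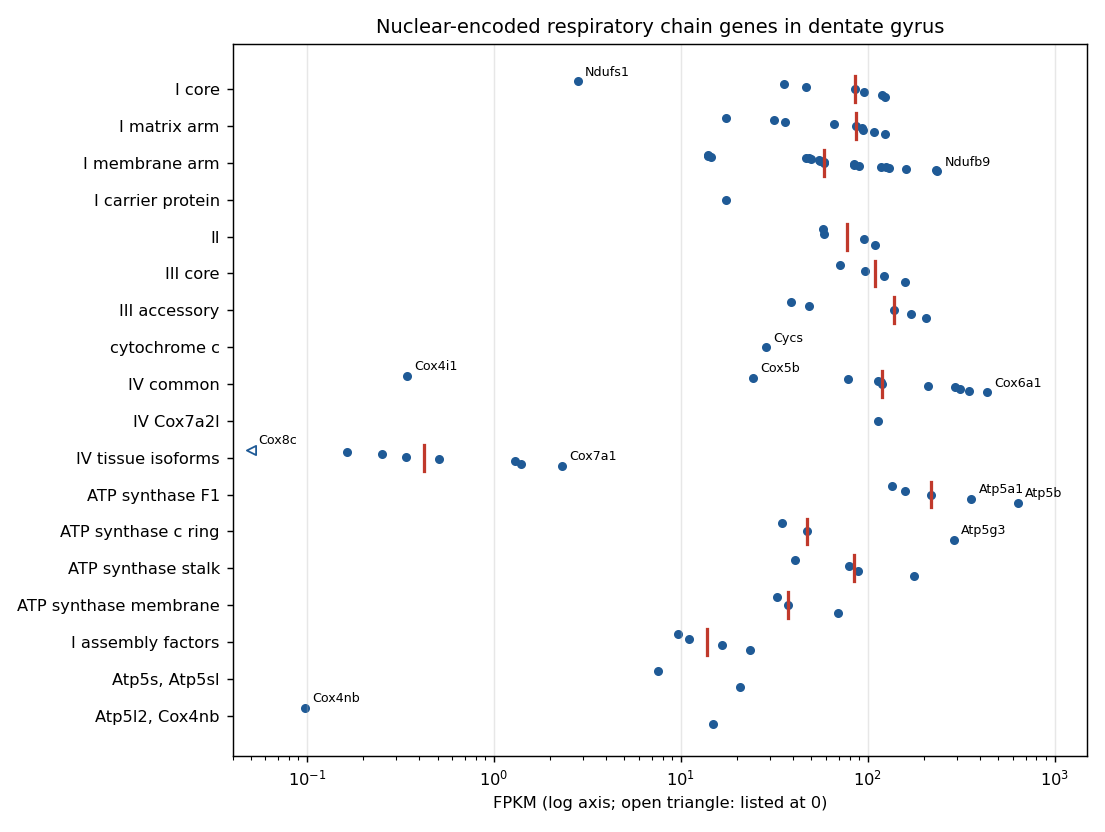
FPKM of the 93 genes on a log axis, 1 point per gene, grouped by role in the complex; red bars are medians of groups with more than 2 genes, and the open triangle is Cox8c, listed at 0. Most subunits lie above 10 FPKM; Cox4i1 at 0.341 FPKM and Ndufs1 at 2.81 FPKM stand far below the other genes of their groups, and the tissue isoforms of complex IV all lie under 10 FPKM.

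Complex I, the NADH dehydrogenase, contributed 36 nuclear subunit genes with a median of 75.3 FPKM, 35 of them at 10 FPKM or more. Among the nuclear core subunits, which carry the flavin, the iron-sulfur clusters and the ubiquinone site, Ndufv2 stood at 120 FPKM. Ndufs7 stood at 95.3 FPKM, Ndufv1, which binds NADH, at 85.4 FPKM, Ndufs8 at 47.0 FPKM and Ndufs3 at 35.7 FPKM. These core genes lay within the range of the accessory genes. Ndufs1, the largest core subunit and the holder of several iron-sulfur clusters, did not, at 2.81 FPKM.

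The Ndufs1 value is far below those of Ndufv1 and Ndufv2, its partners in the same protein module. Its listed transcript is the full coding form of 2661 nt, and no copy of its coding sequence was found elsewhere in the table. The gene lies on mm9 chromosome 1 from 63190170 to 63223396 and is divergent from Eef1b2, a translation elongation factor gene at 204 FPKM whose entry begins 2 bases away. Whether the position bears on the value was not tested. The library protocol has no step that marks strand, so reads of overlapping genes on opposite strands cannot be told apart. The entries of Ndufs1 and Eef1b2 do not overlap as listed.

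The 28 accessory subunits of the 2 arms of complex I spanned 16.96-fold, from Ndufc1 at 13.9 FPKM to Ndufb9 at 236 FPKM. In the matrix arm, Ndufa5 at 124 FPKM and Ndufv3 at 109 FPKM were highest, followed by Ndufa6 at 94.8, Ndufa2 at 93.8, Ndufa7 at 87.1 and Ndufa9 at 66.2 FPKM. Ndufs6 at 36.3, Ndufs4 at 31.7 and Ndufa12 at 17.5 FPKM were the low end. Ndufs6, Ndufs4 and Ndufa12 are all subunits of the NADH-oxidising end of the arm and join it late in assembly. Ndufab1, the mitochondrial acyl carrier protein that sits in complex I, was also low, at 17.4 FPKM.

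In the membrane arm, which holds the proton pumps, the median of the 19 accessory genes was 58.5 FPKM. Ndufb9 and Ndufa3 led at 236 and 232 FPKM, and Ndufb10, Ndufb8, Ndufb5 and Ndufc2 followed at 161, 130, 125 and 118 FPKM. A middle group of 10 genes lay between Ndufb3 at 46.7 FPKM and Ndufa1, an X-linked gene, at 90.2 FPKM. The lowest were Ndufb4 at 14.5, Ndufa11 at 13.97 and Ndufc1 at 13.9 FPKM. The listed transcripts of Ndufa5 and Ndufb10 are annotated as retained-intron forms and that of Ndufs3 as a noncoding form. Their values may thus not be those of the coding messenger RNA. The same limit holds for Cox6c, Atp5d and Atp5h below, whose listed transcripts are not annotated as protein-coding either. For Ndufv3 the listed transcript is a coding form of 493 nt, beside 1582 nt for the longest.

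Complex II, succinate dehydrogenase, showed the narrowest spread of the 5 complexes, 1.89-fold across its 4 genes. The catalytic pair was higher, with the flavoprotein gene Sdha at 109 FPKM and the iron-sulfur gene Sdhb at 95.98 FPKM, a ratio of 1.14. The membrane anchor genes Sdhd and Sdhc were at 58.3 and 57.7 FPKM. The genes of each pair were thus closer to one another than to the other pair, and this complex has no mitochondrially encoded subunit.

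Complex III, the cytochrome bc1 complex, had the highest nuclear median of the 5 complexes as the rule defines them, 121.6 FPKM over 9 genes. Uqcrc2 and Uqcrc1, the large core proteins, were at 157.8 and 121.6 FPKM, a ratio of 1.30. The electron carriers were somewhat lower, with cytochrome c1 (Cyc1) at 96.8 FPKM and the Rieske iron-sulfur protein (Uqcrfs1) at 71.1 FPKM. Among the small accessory subunits, Uqcrh was highest at 205 FPKM, then Uqcr10 at 171 and Uqcrq at 138 FPKM, while Uqcr11 and Uqcrb were at 48.3 and 38.8 FPKM. Cycs, the somatic cytochrome c that links complexes III and IV and also triggers apoptosis once released, was lower than every subunit of complex III, at 28.5 FPKM.

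Complex IV, cytochrome c oxidase, is the complex with most isoform genes, and its genes fell into 2 separate level groups. The common forms were high: Cox6a1 at 435, Ndufa4 at 347, Cox8a at 313, Cox6b1 at 292 and Cox6c at 209.6 FPKM, and Cox7a2, Cox7b, Cox5a and Cox7c at 119, 119, 114 and 78.2 FPKM. Ndufa4 was first named as a complex I subunit and is now assigned to complex IV. Cox7a2l, a relative of Cox7a2 linked to supercomplexes of complexes III and IV, stood at 114 FPKM, close to Cox7a2 with a ratio of 1.05. Whether its protein has that role in these mice was not tested. The exceptions among the common forms were Cox5b at 24.5 FPKM and Cox4i1 at 0.341 FPKM.

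The isoforms known from other tissues were all under 10 FPKM. Cox6a2, Cox7a1 and Cox8b are the forms of heart and skeletal muscle, and stood at 0.512, 2.32 and 0.253 FPKM. Cox6b2, Cox7b2 and Cox8c are known from testis and stood at 1.40 and 0.164 FPKM and at a listed 0. The common form exceeded its partner by 850-fold for Cox6a1 over Cox6a2, 208-fold for Cox6b1 over Cox6b2 and 51.3-fold for Cox7a2 over Cox7a1. For Cox7b over Cox7b2 the ratio was 723, and for Cox8a over Cox8b it was 1236. Such ratios rest on low denominators: with 1 FPKM added to both values they were 289, 122, 36.2, 103 and 250. Each still left the common form far above its partner.

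Marker genes of the tissues in which these isoforms are found were low too. Of 12 striated muscle markers, 5 were listed at 0, the creatine kinase gene Ckm among them, and 1 reached 1 FPKM, Tnnt2 at 2.40 FPKM; their summed level was 3.59 FPKM. One of the 12, Acta1, lies under the wide entry described with Cox4i1 below, where no protein-coding gene reached 1 FPKM; of the other 11, 5 were listed at 0 and 1 reached 1 FPKM. Of 8 testis markers, 7 were listed at 0, including the testis cytochrome c gene Cyct and the protamine gene Prm2. Cycs, at 28.5 FPKM, was thus the only one of the pair Cycs and Cyct above 0.

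Ndufa4l2 and Cox4i2, an Ndufa4 relative and the oxygen-regulated form of subunit 4, are both known in brain from pericytes. Ndufa4l2 was at 1.29 FPKM, 268 times below Ndufa4, and Cox4i2 at 0.339 FPKM. Of 10 pericyte and smooth muscle markers, 6 reached 1 FPKM, from Vtn at 16.8 and Rgs5 at 8.22 FPKM down to Myh11 at a listed 0, with a summed level of 35.9 FPKM. Which cells carried the 2 isoforms was not tested.

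**Figure D2:**
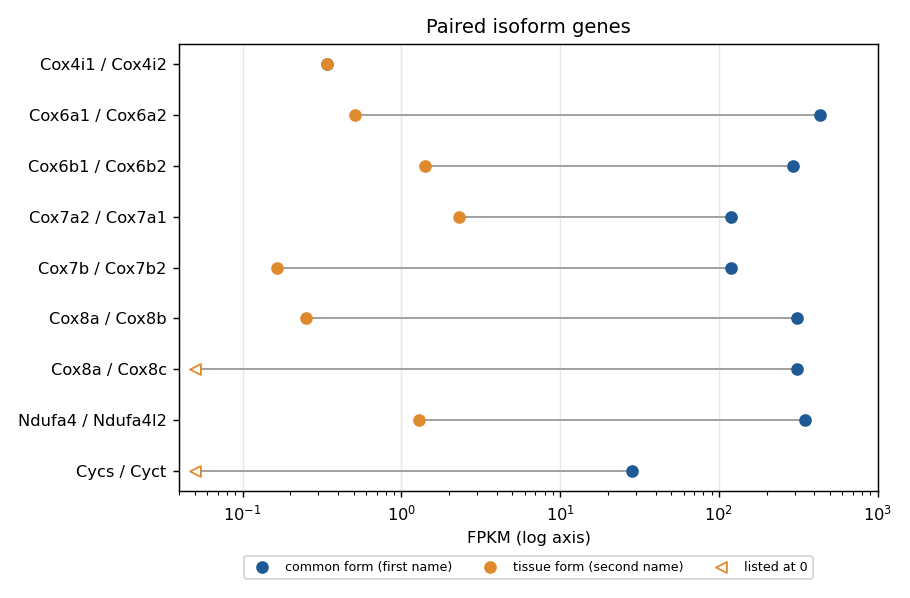
FPKM on a log axis of each common form (blue) and of its tissue form (orange), joined by a line, for 9 pairs; open triangles are genes listed at 0. The common form is far to the right in 8 pairs, while Cox4i1 and Cox4i2 coincide at 0.341 and 0.339 FPKM.

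Cox4i1 was the exception among the pairs, with a ratio to Cox4i2 of 1.01. It encodes subunit 4, an early-assembling and generally indispensable part of complex IV, and its listed transcript is a coding form of 745 nt. The gene lies on mm9 chromosome 8 from 123192190 to 123198109. There it sits inside a single entry of the table, AC114005.5, that spans 4.43 Mb (122434741 to 126869622) and holds no value. Of 44 entries in the table that span 1 Mb or more, this was the only one without a value, and of the 93 genes only Cox4i1 and Cox4nb lie under an entry of that width.

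Every protein-coding gene under that entry was listed low. Of 70 such genes, 11 were listed at 0, none reached 1 FPKM, the median was 0.0925 FPKM, and the highest of all was Cox4i1 itself. Among 63 protein-coding genes in the flanks, 1 entry's width to either side, 45 (71.4%) reached 1 FPKM and the median was 4.59 FPKM. Cox4nb, now called Emc8, begins 177 bases from Cox4i1 on the other strand and stood at 0.0981 FPKM. A value under 1 FPKM was thus common to Cox4i1 and every other protein-coding gene of the span, and no other common form of complex IV had one. The part of the wide entry in the Cox4i1 value was not tested.

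**Figure D3:**
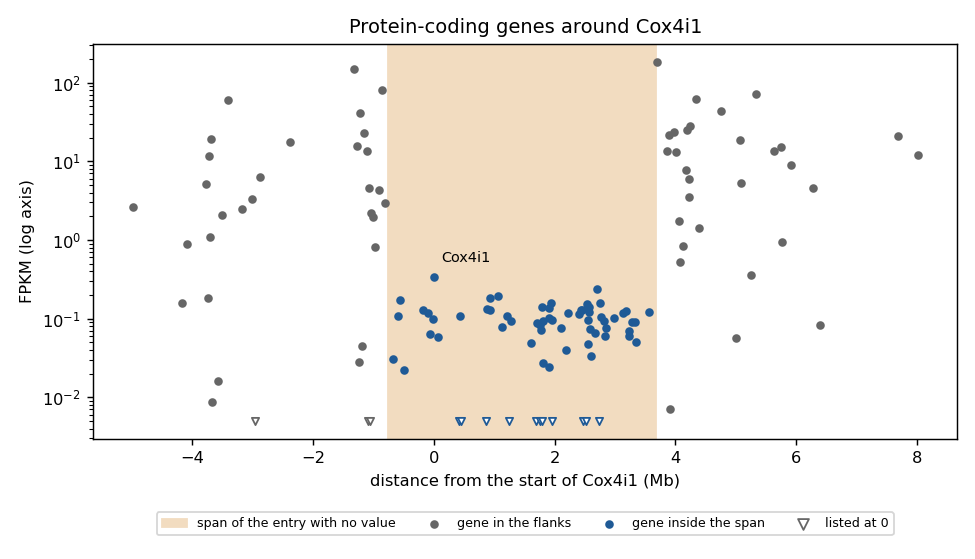
FPKM (log axis) of the 70 protein-coding genes inside the span of the entry with no value (blue) and 63 in its flanks (grey), by distance in Mb from the start of Cox4i1; open triangles are genes listed at 0. No gene in the shaded span reaches 1 FPKM, while 45 of the 63 in the flanks do.

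ATP synthase contributed 15 nuclear subunits with a median of 88.7 FPKM, and all 15 exceeded 10 FPKM. In the deposited values the catalytic F1 head had the highest median of its parts, 218 FPKM. With the copies described later added, the membrane accessory genes had a median of 377 FPKM and the order turned, while the median of the head stayed at 218 FPKM. That sum adds FPKM over unlike lengths, so the turned order is not a settled result. Atp5b, the beta subunit that carries the catalytic sites, was the highest of all 93 genes at 634 FPKM, and its partner Atp5a1 was at 359 FPKM, a ratio of 1.77. The central stalk genes Atp5e, Atp5d and Atp5c1 were at 218, 158 and 135 FPKM. All 5 genes of the head were therefore above 100 FPKM, although alpha and beta are present in several copies per enzyme and the stalk subunits in single copies.

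Outside the head, Atp5g3 and Atp5j lay within the range of the head genes and the other 8 genes below it. In the side stalk that holds the head still, Atp5j was at 176, Atp5f1 at 88.7, Atp5o at 79.9 and Atp5h at 40.7 FPKM. The membrane genes linked to the pairing of the enzyme, Atp5j2, Atp5k and Atp5l, were at 69.8, 37.5 and 32.6 FPKM. The rotor ring is built from subunit c, for which 3 genes encode the same mature protein behind different import sequences. Atp5g3 supplied 77.9% of their summed 371 FPKM, at 289 FPKM, against 47.1 FPKM for Atp5g2 and 34.6 FPKM for Atp5g1. Atp5g3 exceeded Atp5g2 by 6.13-fold and Atp5g1 by 8.35-fold. The latter 2 genes, however, have copies in the table whose summed FPKM was above their own, given next.

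Several of the low values above belong to genes with near-identical copies elsewhere in the genome. Genes of the respiratory chain have left many processed pseudogenes, unspliced DNA copies of their messenger RNA. Short reads from the parent can match these equally well where the sequences are identical. Coding sequences were available for 92 of the 93 genes, and 33 of them had a match of at least 90% identity over at least 50% of the coding sequence in an entry at another place. There were 60 such entries, 57 of them annotated as pseudogenes, and 7 were identical to the gene over the aligned part. Of the 60, 41 were at 1 FPKM or more, 12 were at 100 FPKM or more, and 9 were listed at 0.

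Cox7c, Uqcr11 and Atp5k are shown because their copies exceed them and the sequences make plain how few bases separate the entries. The coding part of Cox7c (without its stop codon) and the entry Gm12338 are the same over 189 bases, so no read within it can tell them apart, yet the table puts 78.2 FPKM on Cox7c and 436 FPKM on Gm12338. Uqcr11 and Gm16418 differ at 2 of 168 bases and stand at 48.3 and 224 FPKM. Atp5k and Gm14337 (now Atp5k-ps2) differ at 7 bases, plus 2 bases missing from the copy, over 210 bases, and stand at 37.5 and 494 FPKM. Capitals mark the bases that differ between the members of a pair.
Cox7c and Gm12338: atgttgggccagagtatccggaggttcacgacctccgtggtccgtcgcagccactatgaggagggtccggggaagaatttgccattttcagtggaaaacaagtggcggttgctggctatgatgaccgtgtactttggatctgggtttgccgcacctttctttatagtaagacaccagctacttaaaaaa
Uqcr11: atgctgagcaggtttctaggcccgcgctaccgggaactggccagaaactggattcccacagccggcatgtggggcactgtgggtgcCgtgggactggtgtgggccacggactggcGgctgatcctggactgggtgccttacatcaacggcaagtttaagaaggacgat
Gm16418: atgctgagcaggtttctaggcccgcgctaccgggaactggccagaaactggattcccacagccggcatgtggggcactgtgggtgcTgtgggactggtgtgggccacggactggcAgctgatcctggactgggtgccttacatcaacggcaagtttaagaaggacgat
Atp5k: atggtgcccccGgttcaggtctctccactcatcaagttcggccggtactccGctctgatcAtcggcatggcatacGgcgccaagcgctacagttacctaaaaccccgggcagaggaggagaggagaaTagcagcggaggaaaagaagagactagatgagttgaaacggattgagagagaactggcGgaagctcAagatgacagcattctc
Gm14337: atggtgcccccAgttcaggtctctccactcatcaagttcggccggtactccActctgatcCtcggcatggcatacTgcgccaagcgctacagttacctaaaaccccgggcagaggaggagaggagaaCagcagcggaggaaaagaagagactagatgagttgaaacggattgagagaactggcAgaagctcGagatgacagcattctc
These sequences are from GENCODE M21 transcripts, read 5′ to 3′ on the sense strand. In mm9 the entry of Gm12338 lies on chromosome 11 from 75413265 to 75413456, that of Gm16418 on chromosome 1 from 168361836 to 168362006 and that of Gm14337 on chromosome 2 from 173809983 to 173810192.

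The summed FPKM of the copies exceeded the gene's own value for 19 of the 33 genes. The largest ratios were 13.2 for Atp5k, 10.6 for Atp5l, 10.4 for Cox5b, 8.53 for Ndufb4 and 6.51 for Atp5g1. Cox5b, at 24.5 FPKM, faced Gm11273 at 255 FPKM, an intronless entry annotated as protein-coding with 99.2% identity. Ndufb4, at 14.5 FPKM, faced a copy identical over its coding sequence, Gm3244 (now Ndufb4c), at 124 FPKM. Ndufab1 and Ndufa12, at 17.4 and 17.5 FPKM, had copies that summed to 112 and 93.8 FPKM. The low values of these genes within their groups therefore came with copies that were higher in FPKM.

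The c-ring genes and cytochrome c show the same picture. Atp5g1 faced Gm10039, 99.8% identical, at 225 FPKM. Atp5g2 faced Gm10175 and Gm10231, both identical to it over the whole coding sequence and both listed at the same 65.4 FPKM. With copies added, Atp5g1 came to 259.9 and Atp5g2 to 178 FPKM, both still below the 289 FPKM of Atp5g3. Such sums add FPKM over unlike lengths, here 534 nt for Gm10039 and 4715 nt for the listed transcript of Atp5g1. They are not the level a gene would have with those reads. Multiplied by listed length, the copies of Atp5g1 were 0.737 times the gene and those of Atp5g2 3.42 times. The size of the lead of Atp5g3 is thus not settled. How reads were divided between genes and copies was not tested. Cycs, at 28.5 FPKM, had 5 copies that summed to 149.9 FPKM, led by Gm10053 at 75.5 FPKM, which is identical over the coding sequence.

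At the other end, Uqcrh, Ndufa4 and Atp5c1 had copies that summed to 73.1, 73.0 and 50.9 FPKM, below their own 205, 347 and 135 FPKM, and Uqcrq had a single match that was listed at 0. Among the 77 subunit genes without the tissue isoforms, the 29 with a copy at 1 FPKM or more had a median of 48.8 FPKM and the 48 without had a median of 102.8 FPKM. With copies added, the median of the first group was 185.5 FPKM, and 1 of its genes lay under 50 FPKM in place of 16. A rise was set in advance by the choice of the group, since its genes were picked for the copies that were then added. It therefore does not show why their own values were low. The copies at 1 FPKM or more are short, 171 to 1032 nt with a median of 372 nt, and FPKM of entries near the fragment length is poorly determined. With values multiplied by listed length, which compares amounts of reads rather than levels, copies exceeded the gene for 13 genes. Atp5g1 and Ndufab1, at ratios of 0.737 and 0.862, were among those for which they then did not.

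**Figure D4:**
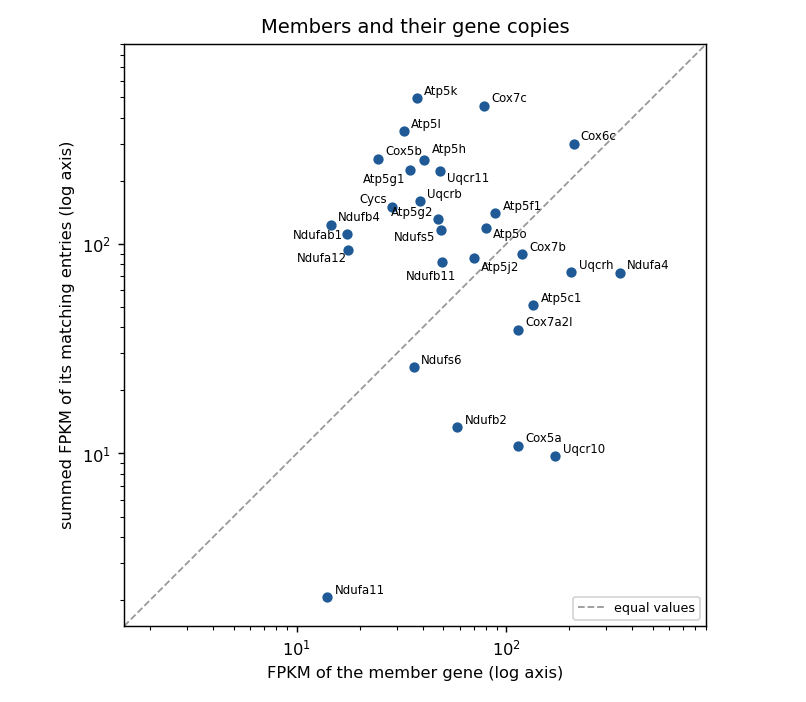
Own FPKM of 29 genes (horizontal log axis) against the summed FPKM of their matching entries elsewhere in the genome (vertical log axis), for genes with such an entry at 1 FPKM or more; the dashed line marks equal values. The 19 genes above the line include Atp5k, at 37.5 against 494 FPKM, and Cox5b, at 24.5 against 255 FPKM.

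Medians by complex moved with the copies. Complex IV without its tissue isoforms went from 119 to 285 FPKM, with copies at 7 of 12 genes, and ATP synthase from 88.7 to 229 FPKM, with copies at 9 of 15. Complex III went from 121.6 to 157.8 FPKM and complex I from 75.3 to 92.0 FPKM, with copies at 4 of 9 and 8 of 36 genes. Complex I stayed lowest of these 4, while complex III gave up the first place, so the order of the complexes is not settled by the deposited values alone. The sums with copies add FPKM over unlike lengths and do not settle it either. What share of the reads on these copies came from the parent genes was not tested.

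Nuclear subunit genes were far below the mitochondrially encoded subunits of the same complex. The latter ran from mt-Nd5 at 1079 FPKM to mt-Nd4 at 3689 and mt-Nd3 at 3954 FPKM in complex I, and mt-Cytb of complex III was at 2642 FPKM. In complex IV mt-Co3, mt-Co2 and mt-Co1 were at 16089, 14250 and 8938 FPKM, and in ATP synthase mt-Atp8 and mt-Atp6 at 14404 and 7951 FPKM. The lowest mitochondrial gene exceeded the highest nuclear gene by 4.57-fold in complex I, 12.9-fold in complex III, 20.5-fold in complex IV and 12.5-fold in ATP synthase. Between medians the gap on the log2(FPKM + 0.1) scale was smallest in complex III at 4.44 and 4.98 in complex I, and larger in complex IV at 6.90 and in ATP synthase at 6.98. These gaps use nuclear medians without copies. With copies added, the nuclear medians of complex IV and ATP synthase were 285 and 229 FPKM, which makes their gaps smaller. All 77 nuclear genes together held 1.93% of the summed FPKM of the table and the 13 mitochondrial protein genes 17.6%. The nuclear share leaves out the copies, which summed to 4251 FPKM beside 8827 FPKM on the 77 genes. Mitochondrial DNA is present in many copies per cell and its transcripts are polyadenylated by a separate system; the part of poly(A) selection in the gap was not tested.

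**Figure D5:**
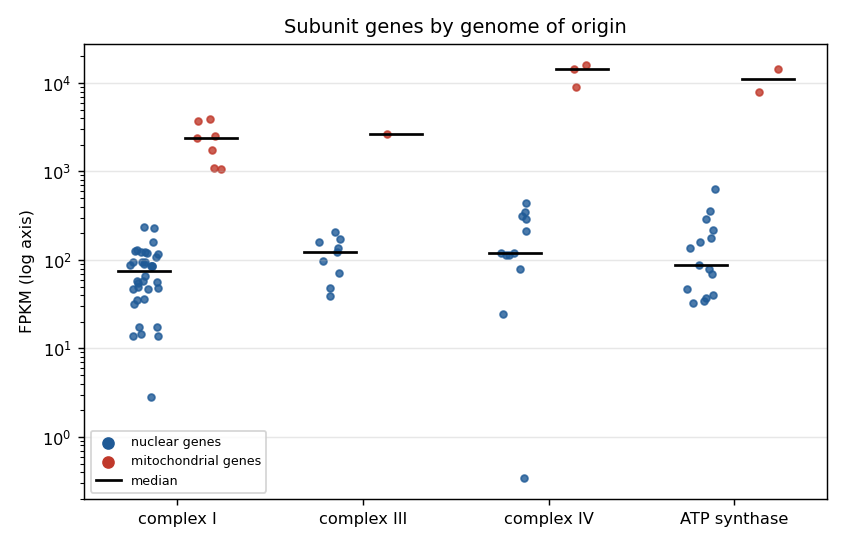
FPKM (log axis) of nuclear (blue, tissue isoforms left out) and mitochondrial (red) subunit genes in the 4 complexes that have both; black bars are medians and points are spread sideways for legibility. No nuclear gene reaches a mitochondrial gene of its complex, the closest being complex I with 236 against 1079 FPKM.

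Genes that build the complexes or control their transcription were lower than the subunits. Among the 93 genes, the complex I assembly factors Ndufaf3, Ndufaf2, Ndufaf1 and Ndufaf4 were at 23.5, 16.6, 11.1 and 9.66 FPKM. The other 4 genes that are no subunit were Atp5sl (now Dmac2), at 20.7 FPKM, Atp5l2, counted above as a copy of Atp5l and annotated as its pseudogene in GENCODE M21, at 14.9 FPKM, Atp5s, at 7.54 FPKM, and Cox4nb. Over 36 assembly factors in all, those of complexes I to IV and ATP synthase, 34 reached 1 FPKM, 21 reached 10 FPKM and none 100 FPKM, with a median of 11.3 FPKM. The copper chaperone gene Cox17 was highest at 84.7 FPKM and Surf1, a complex IV assembly gene, next at 55.7 FPKM. Nubpl, which delivers iron-sulfur clusters to complex I, and Sco2, another copper chaperone of complex IV, were the only 2 under 1 FPKM, at 0.743 and 0.799 FPKM.

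The assembly factors of the other complexes were all below Surf1. For complex I, beside the 4 members above, Ecsit was at 23.1 and Tmem126b at 14.03 FPKM, and of the factors numbered Ndufaf5 to Ndufaf8, which the table holds under older names, Ndufaf5 and Ndufaf8 were at 18.3 and 9.61 FPKM and Ndufaf6 at 7.62 FPKM. For complex II, Sdhaf4 and Sdhaf1 were at 22.6 and 18.6 FPKM and Sdhaf3 at 2.58 FPKM. For complex III, Ttc19, Bcs1l and Lyrm7 were at 23.2, 13.4 and 7.70 FPKM. For ATP synthase, Tmem70, Atpaf2 and Atpaf1 were at 20.7, 11.4 and 7.79 FPKM. Cox17 and Surf1, at 84.7 and 55.7 FPKM, were below the median of 119 FPKM for complex IV without tissue isoforms but above the 51.4 FPKM of all 20 complex IV genes. The factors of the other complexes were below the median of their nuclear subunits.

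Of 12 regulators of mitochondrial biogenesis, 11 reached 1 FPKM and 3 reached 10 FPKM, with a median of 7.06 FPKM. Yy1 was highest at 22.3 FPKM and Tfam, which packages mitochondrial DNA and takes part in its transcription, was at 16.8 FPKM. The coactivator gene Ppargc1a was at 5.21 FPKM, Nrf1 at 5.74 FPKM and the GABP subunit genes Gabpb1 and Gabpa at 7.71 and 6.97 FPKM. Tfb1m was lowest, at 0.0507 FPKM. The carriers that feed ATP synthase were, by contrast, at the level of the subunits: Slc25a3, the phosphate carrier, was at 205 FPKM, and the ADP/ATP exchangers Slc25a4 and Slc25a5 at 204 and 113 FPKM, while the testis form Slc25a31 was listed at 0. Vdac1, the outer membrane pore, was at 237 FPKM and Vdac3 at 33.9 FPKM. Atpif1, which inhibits ATP synthase when it runs backwards, was at 159 FPKM, and of the uncoupling proteins Slc25a14 was highest at 29.5 FPKM and Ucp1, that of brown fat, was listed at 0, as were 4 of the 5 brown fat markers, Ucp1 among them.

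Promoter sequences, 300 bases around the start site, were matched in RefSeq (GRCm38.p6) for 75 of the 93 genes. The letters searched, on both strands, were GCATGCGC for NRF1, CCGGAAGT for ETS factors such as GABP, and AAGATGGC for YY1. NRF1 letters were in 12 of the 75 genes (16%), against 3.05% of 27025 genes with a promoter of that length. YY1 letters were in 11 (14.7%), against 3.19%, and ETS letters in 5 (6.67%), against 4.31%. At least 1 of the 3 was in 27 genes (36%), against 9.91% of all, and median GC was 58.3% over the 81 promoters of these genes against 52.7% over all 32851. Genes with any of the 3 had a median of 66.2 FPKM and the 48 without had 79.1 FPKM, but with copies added these medians were 129.7 and 118 FPKM, so the order of the groups turned. The search is of exact letters only and says nothing of binding.

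The promoters of Cycs and Uqcr11 are shown as the cytochrome c gene, a textbook NRF1 target, and the only one of the 75 genes to hold both NRF1 and ETS letters. Matches to the searched letters are in capitals, and each sequence is given 5′ to 3′ on the minus strand, on which both genes lie: Cycs at chr6:50566520-50566819 and Uqcr11 at chr10:80406772-80407071 in GRCm38.p6.
Cycs: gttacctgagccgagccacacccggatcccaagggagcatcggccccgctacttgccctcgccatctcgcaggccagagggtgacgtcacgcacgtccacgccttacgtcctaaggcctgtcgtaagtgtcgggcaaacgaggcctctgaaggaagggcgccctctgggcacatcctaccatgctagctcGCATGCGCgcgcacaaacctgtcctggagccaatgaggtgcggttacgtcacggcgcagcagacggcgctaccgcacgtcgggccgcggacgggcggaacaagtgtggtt
Uqcr11: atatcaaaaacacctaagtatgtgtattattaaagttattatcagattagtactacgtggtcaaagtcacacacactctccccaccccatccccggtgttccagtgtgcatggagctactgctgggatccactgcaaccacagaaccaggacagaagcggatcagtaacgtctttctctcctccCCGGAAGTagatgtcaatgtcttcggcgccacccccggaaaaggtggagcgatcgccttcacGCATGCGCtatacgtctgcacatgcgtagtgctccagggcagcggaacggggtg
The values of both genes, 28.5 and 48.3 FPKM, are among those exceeded by their copies.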

How the data were processed

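Poly(A) RNA of 3 wild-type libraries was sequenced. The submitters' processing notes name TopHat and Cufflinks as tools and mm9 and NCBIM37 as builds, with no versions; whether counting used strand is not stated there. The authors deposited 1 FPKM value per gene; whether it comes from pooled or averaged libraries is not given, no depth, counting interval or limit of detection can be stated, and no test was run. Of 37681 rows, 1212 hold no value. Rows sharing a symbol were summed, places were converted to 1-based mm9 positions, and gene types and transcripts came from GENCODE M21 by identifier (all 94 rows of the 93 genes matched; 92 listed transcripts were found, 6 of them not protein-coding). Later gene symbols were traced by identifier. Copies were sought with blastn 2.17.0. Members and gene lists were chosen with earlier results of these data known. Names follow this rule: all isoform pairs, the 2 highest and the lowest gene of each role and pathway list, every member under 10 FPKM, and others by role. One gene that the rule names is not reported here. The symbol rule, the summing of shared names and the motif search were tested on simulated data. The search for copies and the other steps were not. Alternatives changed the pseudocount (0.1, 1 and 0.01 FPKM), shared names, members and background. Python 3.11.15, pandas 2.3.3 and numpy 2.4.6 did the computing, and matplotlib 3.10.9 drew the plots.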

Additional observations from a re-analysis of the deposited data

How the results depend on the processing

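Leaving out a library was not possible, since the table holds 1 column for the group. Of 115 alternative values over 48 results, 105 stayed within 1.5 times the reported value (or the same distance on the log2 scale), 8 did not and 2 turned direction. Both turned when copies were added: the median of genes with any promoter motif minus that of genes without went from -12.9 to 11.3 FPKM, and the median of the F1 head minus that of the membrane accessory genes of ATP synthase from 181 to -158 FPKM. The median of all 20 complex IV genes, 51.4 FPKM, lies between its 2 level groups: it was 78.2 FPKM without Cox8c, listed at 0, and 24.5 FPKM with only genes whose listed transcript is protein-coding, which drops Cox6c. The other 6 were isoform ratios with a low denominator; with 0.1 FPKM added, Cox7b over Cox7b2 was 449.5, and with 1 FPKM added Ndufa4 over Ndufa4l2 was 151.7. The comparison of copies by length and with matches of 95% identity over 80% of the coding sequence (18 genes instead of 19), like the adding of copies, was chosen after seeing the data. The 105 include alternatives that could hardly move a value: the 93 genes fill 94 rows, so the treatment of shared names changed little. Adding copies to the medians by complex was not among the 115. It moved ATP synthase from 88.7 to 229 FPKM and complex IV without tissue isoforms from 119 to 285 FPKM. All values with copies added, the turned directions included, sum FPKM over unlike lengths. Depth is unknown, so values near 0 cannot be told from failed estimates.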
